A study of Mus musculus with 6 samples.

Results

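Innate pattern receptors recognise molecules that microbes carry and the body does not, among them cell wall polysaccharides, lipopolysaccharide, flagellin and double-stranded RNA. The 9 genes described here include the Toll-like receptors Tlr2, Tlr3, Tlr4 and Tlr5 and the adaptor Myd88, which these receptors other than TLR3 share. The others are the co-receptor Cd14, the beta-glucan receptor Clec7a (dectin-1) and the cytosolic peptidoglycan sensors Nod1 and Nod2. The 9 genes were taken by symbol from the table of FPKM values (fragments scaled to gene length and library size). All 9 were found among its 23550 symbols. Of these, 7 reached 1 FPKM in 3 or more libraries and were tested among 11738 genes in all, and Tlr5 and Nod2 were below that level.

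Toll-like receptors sit in the cell membrane or in endosomes and signal through the adaptors MYD88 or TRIF to NF-kappaB and interferon regulatory factors. Dectin-1 signals through the kinase SYK and the adaptor CARD9, and NOD1 and NOD2 signal through the kinase RIPK2. In the gut these genes are known from macrophages, dendritic cells and neutrophils, and several also from epithelium and endothelium.

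The RNA came from mouse stomach in 6 libraries. In 3 of them, saline replicates 1, 2 and 4, the mice had normal saline by gavage, and the labels write a dose of 20 mg per kg beside this as well. In the other 3, Riclin replicates 2, 3 and 4, they had Riclin at 20 mg per kg. Riclin is a bacterial polysaccharide that serves as a soluble dietary fibre. The gavage experiment ran for 14 days on 20 mice, and the sources used here do not give strain, age or sex. A separate experiment of the study injured the stomach with ethanol, and whether any of the 6 libraries comes from it is not stated. The question behind the comparison is whether Riclin acts on the defences of the gastric mucosa.

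No receptor differed between the groups past the threshold. By limma 0 of 7 tested members, and 0 of 11738 genes (0%), had a Benjamini-Hochberg adjusted p under 0.05, and the members' adjusted p lay between 0.806 and 0.924. An unadjusted p under 0.05 was found for 1 of 7 members (Tlr4) and for 5.90% of all tested genes (4.07% higher and 1.83% lower in Riclin). The value for Tlr4 rested on the full set of libraries: with 1 library left out it stayed under 0.05 in 1 of 6 fits, the one without saline replicate 1. The groups did not overlap in 2 of 7 tested members (Tlr4 and Nod1, both higher in Riclin), against 11.2% of tested genes (8.14% higher and 3.02% lower). Of the 7, 5 had a log2 fold change above 0, as did 61.3% of tested genes. Their median was 0.17, against 0.040 over all tested genes, and these 2 medians were 0.10 and -0.022 when pancreatic acinar genes were removed and the libraries rescaled. With 3 libraries against 3, an exact permutation test cannot give a p below 0.1. Nothing in the labels says that each library came from a separate animal, so every p measures the spread between libraries only.

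The libraries held 30884067 to 40050267 reads, as the FPKM values imply. All 12 genes listed as markers of stomach epithelium had values above 0 in every library, and their summed level was 120501 to 178682 FPKM in saline and 127506 to 176230 in Riclin. Several libraries stood apart in genes of neighbouring tissue or stomach region. In Riclin replicate 3, 20 pancreatic acinar genes summed to 224 FPKM, against 35968 to 147716 in the other 5 libraries. Squamous genes of the forestomach summed to 96.7 to 445 FPKM in saline and 403 to 540 in Riclin. Saline replicate 4 had the intestinal gene Alpi at 41.95 FPKM, against 0.146 to 1.998 elsewhere, and the mucous gene Tff2 at 11391 FPKM, against at most 5414. Riclin replicate 4 had the antral hormone gene Gast at 2.62 FPKM, against 389 to 1037 in the other 5. These 3 genes were picked out after their values were seen. Members are also given without these libraries where their values turn on them. In bulk RNA, fewer cells of a type and less RNA per cell cannot be told apart.

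**Figure D1:**
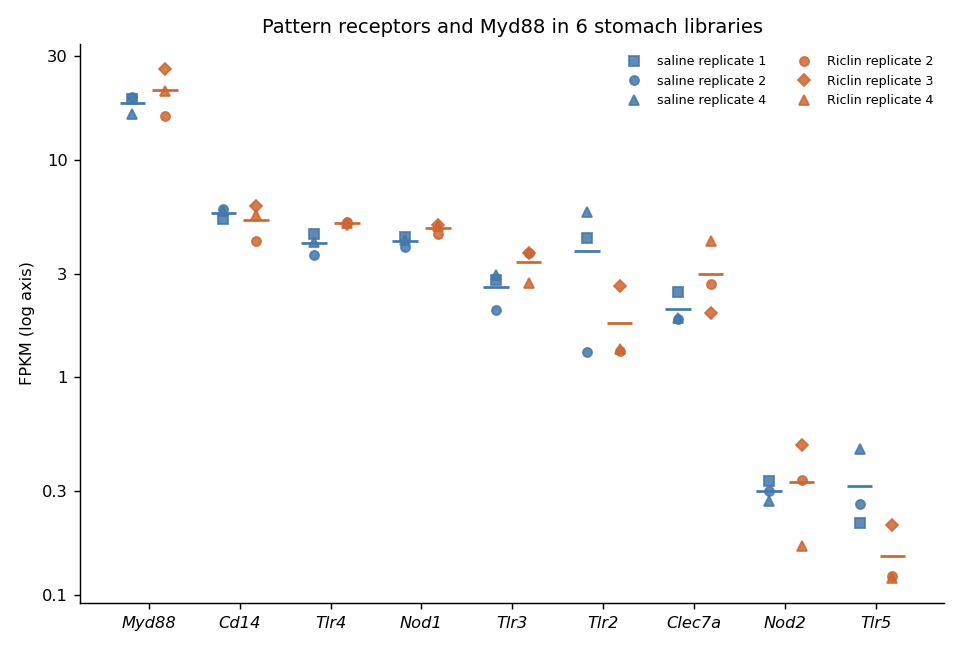
FPKM of the 9 genes on a log axis, with genes ordered by their mean over 6 libraries, 1 symbol for each library and a line at each group mean. Myd88 lies above all others, Nod2 and Tlr5 lie below 0.5 FPKM, and Tlr2 has the widest spread among the tested genes.

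On the FPKM scale, which is per gene length, Myd88 had the highest level, with a mean of 19.6 ± 3.68 FPKM (SD over all 6 libraries), above 89.2% of the symbols in the table. Cd14 (5.52 ± 0.683 FPKM), Tlr4 (4.63 ± 0.612 FPKM) and Nod1 (4.54 ± 0.400 FPKM) followed, with ranges that overlapped from each to the next. Below them came Tlr3 (2.998 ± 0.647 FPKM), Tlr2 (2.795 ± 1.89 FPKM) and Clec7a (2.52 ± 0.918 FPKM), again with overlapping ranges. Nod2 (0.317 ± 0.105 FPKM) and Tlr5 (0.233 ± 0.129 FPKM) formed the lowest pair. The ranges were separate at 3 steps of this order, between Myd88 and Cd14, between Nod1 and Tlr3, and between Clec7a and Nod2. The adaptor was thus measured well above each receptor in every library, and the flagellin receptor and NOD2 were the rarest transcripts of the 9.

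The promoters of 3 members are shown. Tlr2 was chosen for the widest spread among the tested members, and Myd88 for the only match to an interferon response element. Tlr3 was chosen as a known interferon-inducible gene. The listed interferon-stimulated genes summed higher in the Riclin libraries, though none passed the adjusted threshold. RefSeq promoter windows (GRCm38.p6, 250 bases before to 50 after the start) were used for 7 of 9 members. The start is the RefSeq one. For Myd88 and Tlr3 the printed bases lie inside the gene's GENCODE span, and for Tlr2 they lie partly inside it. The 250 bases before the start are printed 5′ to 3′ on the gene's strand, which is minus for all 3, at chr9:119340019-119340268 for Myd88, chr3:83841609-83841858 for Tlr2 and chr8:45410381-45410630 for Tlr3. Capitals mark matches to the motifs.
Myd88: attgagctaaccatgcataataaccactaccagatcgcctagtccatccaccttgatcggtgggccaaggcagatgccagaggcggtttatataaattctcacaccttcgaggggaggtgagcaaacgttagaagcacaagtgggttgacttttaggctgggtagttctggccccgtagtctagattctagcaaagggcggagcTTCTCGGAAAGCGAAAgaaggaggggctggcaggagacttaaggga
Tlr2: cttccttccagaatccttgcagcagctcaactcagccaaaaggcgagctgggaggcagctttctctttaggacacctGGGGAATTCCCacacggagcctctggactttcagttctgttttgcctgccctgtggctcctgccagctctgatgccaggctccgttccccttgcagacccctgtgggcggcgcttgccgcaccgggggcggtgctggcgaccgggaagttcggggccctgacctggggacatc
Tlr3: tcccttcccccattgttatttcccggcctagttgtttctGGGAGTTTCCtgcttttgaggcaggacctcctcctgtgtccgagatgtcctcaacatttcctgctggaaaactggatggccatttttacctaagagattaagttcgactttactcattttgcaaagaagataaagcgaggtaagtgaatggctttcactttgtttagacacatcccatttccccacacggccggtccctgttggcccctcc
In Myd88 the capitals join 2 overlapping matches, a gamma-activated sequence (TTCNNNGAA) from 46 to 38 bases before the start and an interferon response element (GAAA, any 2 bases, GAAA) from 40 to 31 bases before it. In Tlr2 and Tlr3 they mark matches to the NF-kappaB consensus site, 173 to 163 and 211 to 202 bases before the start, and a further match in Tlr2 spans the start and is not capitalised. On either strand of 32851 windows of 300 bases, the interferon element was found in 3.44%, the gamma-activated sequence in 8.30% and the NF-kappaB site in 4.51%. Among the 9 windows of the 7 members, 1 held the first, 2 the second (Myd88 and Nod1) and 2 the third. The NF-kappaB search was added after the windows had been read. These are letter matches in a window and not shown to be bound.

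Tlr4, the receptor for bacterial lipopolysaccharide, was the member with the clearest separation of the groups. It lies on GRCm38 chromosome 4 from 66827584 to 66930284 on the plus strand and is protein-coding. It measured 4.57, 3.66 and 4.18 FPKM in saline replicates 1, 2 and 4, and 5.21, 5.05 and 5.11 FPKM in Riclin replicates 2, 3 and 4. All 3 Riclin libraries lay above all 3 saline libraries and close to one another. The means were 4.14 ± 0.456 and 5.12 ± 0.0799 FPKM (SD, n = 3 each), 1.24-fold higher in Riclin. The log2 fold change of 0.26 (SE 0.101, 95% interval 0.022 to 0.49) had an unadjusted limma p of 0.0358 and an adjusted p of 0.806, so it did not pass. Its unadjusted p stayed under 0.05 in 8 of 16 alternatives and was above it with pancreatic genes removed, at the higher filter, with the replicate block and in 5 of 6 fits with 1 library left out. The log2 fold change lay between 0.19 and 0.32 over those alternatives, and the groups also stayed apart with pancreatic genes removed and with median-of-ratios or upper-quartile scaling. At 1087 to 1700 reads per library, Tlr4 is among the better counted members.

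The groups overlapped in each of the partners of Tlr4. Cd14, the anchored protein that hands lipopolysaccharide to the receptor (chromosome 18, 36725067 to 36726798, minus strand), measured 5.37, 5.95 and 5.85 FPKM in saline and 4.23, 6.12 and 5.59 FPKM in Riclin replicates 2, 3 and 4. Riclin replicate 2 was the lowest and replicate 3 the highest of all 6, so the groups overlapped. The log2 fold change was -0.10 (SE 0.131, 95% interval -0.41 to 0.20, limma adjusted p = 0.924), and it was 0.0275 without Riclin replicate 2. Ly96, which completes the receptor complex as MD-2, measured 5.46 ± 1.34 and 4.43 ± 1.01 FPKM (SD, n = 3 each). The serum carrier Lbp, chosen after its values were seen, measured 2.77 ± 0.570 and 2.75 ± 0.510 FPKM. None of these 3 passed the threshold.

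Tlr2 recognises bacterial lipoproteins together with TLR1 or TLR6 and lies on chromosome 3 from 83836272 to 83841767 on the minus strand. It measured 4.37, 1.31 and 5.78 FPKM in saline replicates 1, 2 and 4, and 1.33, 2.63 and 1.35 FPKM in Riclin replicates 2, 3 and 4. Saline replicates 1 and 4 were high, saline replicate 2 was at the level of the lowest Riclin libraries, and the groups overlapped. Reads ran from 156 to 589, and the 95% Poisson interval of saline replicate 1 (4.01 to 4.74 FPKM) lay far above that of saline replicate 2 (1.12 to 1.54 FPKM). The spread within the saline group therefore exceeded counting error. Its log2 fold change was -0.69 (SE 0.384, 95% interval -1.59 to 0.20, limma adjusted p = 0.843). That value was -1.16 without saline replicate 2 and -0.38 without saline replicate 4.

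Genes near to Tlr2 in their pattern over the libraries were sought as well. Likeness was measured as the root mean square difference between profiles of log2(FPKM + 1), each centred on its own mean over the 6 libraries. Predicted and unnamed symbols and single immunoglobulin and T cell receptor segments were left out of this search. Among the tested genes that remained, the nearest were Capn8 (0.148), a calpain of gastric surface mucous cells, the claudin Cldn23 (0.173), the lymphotoxin subunit Ltb (0.190) and Cps1 (0.205), the first enzyme of the urea cycle. The median distance to Tlr2 over the tested genes compared was 0.619. Capn8 measured 22.5, 12.3 and 34.0 FPKM in saline replicates 1, 2 and 4 and 13.0, 17.3 and 12.0 FPKM in Riclin replicates 2, 3 and 4. Ltb measured 6.16, 2.41 and 7.87 FPKM in saline and 1.96 to 2.48 in Riclin.

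Listed B and plasma cell genes other than Jchain were high in the same saline libraries. Cd79a, a signalling chain of the B cell receptor, measured 10.55, 1.36 and 10.05 FPKM in saline replicates 1, 2 and 4, and 0.551 to 2.24 FPKM in Riclin. Its partner Cd79b measured 8.09, 1.56 and 7.52 FPKM in saline and 1.13 to 1.44 in Riclin. Both were picked out after their values were seen. The 7 listed genes of B and plasma cells found in the table summed to 24.8 to 37.7 FPKM in saline and 9.59 to 12.2 in Riclin, and the 7 T cell genes to 5.42 to 16.7 and 2.88 to 4.08. Among the former, Jchain measured 12.3, 21.0 and 12.7 FPKM in saline replicates 1, 2 and 4. It gave most of the 24.8 FPKM, the sum of saline replicate 2. No gene of either list was at 0 in any library. The surface mucous cell genes Muc5ac, Gkn1 and Tff1 were also chosen after their values were seen. They were lowest among the saline libraries in replicate 4, where Tlr2 was highest. In saline replicate 1, where Tlr2 was also high, they were highest of all 6 libraries. The mucous genes Muc6 and Tff2 were highest in saline replicate 4, at 54.1 and 11391 FPKM. The part of B cells, T cells or epithelium in the Tlr2 values was not tested.

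**Figure D2:**
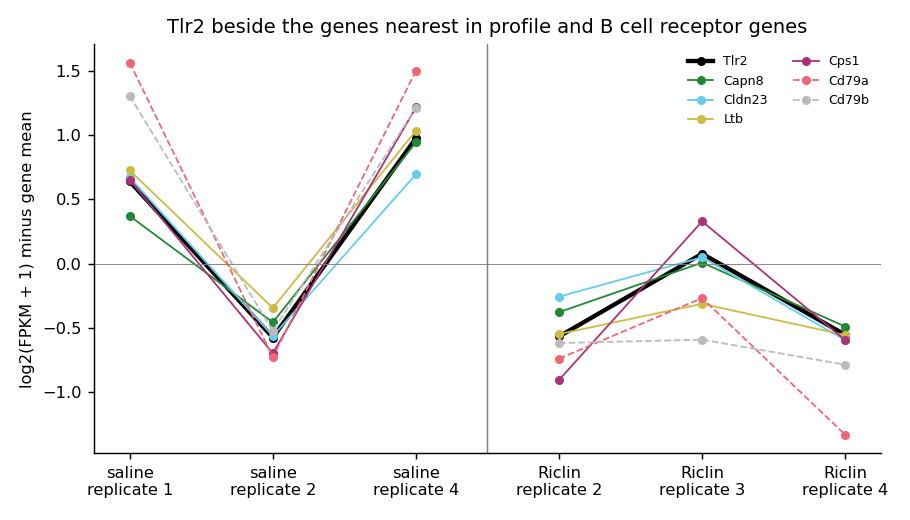
log2(FPKM + 1) minus the gene's mean over 6 libraries, for Tlr2 (thick black), the 4 genes nearest to it in profile and the B cell receptor genes Cd79a and Cd79b (dashed). Lines join the libraries of a group only to guide the eye. All 7 genes are high in saline replicates 1 and 4 and lower in saline replicate 2.

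The receptors that pair with Tlr2 varied less between libraries. Tlr1 measured 4.17, 3.65 and 3.81 FPKM in saline and 3.21, 4.31 and 1.93 FPKM in Riclin replicates 2, 3 and 4, with a log2 fold change of -0.27 (SE 0.202, limma adjusted p = 0.88). Tlr6 measured 0.732 to 1.30 FPKM in saline and 0.513 to 1.32 in Riclin, with a log2 fold change of -0.096. In both genes Riclin replicate 4 was lowest and the groups overlapped. The other 6 Toll-like receptors on the list (Tlr7, Tlr8, Tlr9, Tlr11, Tlr12 and Tlr13) were below the filter, and their groups overlapped too.

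Tlr3, the endosomal receptor for double-stranded RNA, signals through TRIF rather than MYD88. It lies on chromosome 8 from 45395665 to 45411080 on the minus strand, where an antisense gene (Gm45542) overlaps it. It measured 2.81, 2.05 and 2.95 FPKM in saline replicates 1, 2 and 4, and 3.73, 3.74 and 2.71 FPKM in Riclin replicates 2, 3 and 4. Riclin replicates 2 and 3 were above every saline library, while Riclin replicate 4 lay within the saline range. The log2 fold change was 0.29 (SE 0.148, 95% interval -0.058 to 0.63, limma adjusted p = 0.831). Leaving out saline replicate 2 gave 0.17, and leaving out Riclin replicate 4 gave 0.40.

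Myd88, the adaptor of all Toll-like receptors other than TLR3 and of the interleukin-1 receptor family, measured 19.1, 19.4 and 16.2 FPKM in saline replicates 1, 2 and 4. In Riclin replicates 2, 3 and 4 it measured 16.0, 26.1 and 20.7 FPKM. The lowest and the highest of the 6 values were both in Riclin libraries, so the groups overlapped. The log2 fold change of 0.17 (SE 0.174, 95% interval -0.24 to 0.57, limma adjusted p = 0.913) was 0.0005972 without Riclin replicate 3 and 0.34 without Riclin replicate 2. On chromosome 9, from 119335934 to 119341411 on the minus strand, its annotation overlaps Acaa1a on the plus strand and Slc22a14 on its own. The use of strand in the counting is not given, so reads of these genes and of Gm45542 may be shared with the members they overlap. The genes nearest to Myd88 in profile were Ier3, an immediate early gene (root mean square difference 0.0433), H2-Ke6 (0.0485), the transporter Slc16a5 (0.0530) and the respiratory subunit Ndufa10 (0.0627), against a median of 0.230 over the tested genes compared.

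Interferon-stimulated genes stood beside these members. The 28 listed genes found in the table, all tested, summed to 453 to 591 FPKM in saline and to 808, 1497 and 781 FPKM in Riclin replicates 2, 3 and 4. Of the 28, 27 had a log2 fold change above 0 with a median of 0.85, and by limma none passed the adjusted threshold. An unadjusted limma p under 0.05 was found for 21 (75%, beside 5.90% of all tested genes), all higher in Riclin. The groups did not overlap in 20 (71.4%, beside 11.2%), again all higher. This list was chosen with earlier results of these data known. Riclin replicate 3, the highest in that sum, was also the highest library for Myd88 and, just above Riclin replicate 2, for Tlr3. Riclin replicate 2 was above every saline library in the sum and below every saline library in Myd88. Its 95% Poisson interval for Myd88 (15.1 to 16.9 FPKM) overlapped that of saline replicate 4 (15.2 to 17.3 FPKM). The part of interferon-stimulated expression in the values of the 2 members was not tested.

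Clec7a encodes dectin-1, a lectin of myeloid cells that binds beta-glucan, the polysaccharide of fungal walls. It lies on chromosome 6 from 129461591 to 129472779 on the minus strand, and GENCODE classes it as a polymorphic pseudogene. It measured 2.48, 1.85 and 1.87 FPKM in saline replicates 1, 2 and 4, and 2.68, 1.99 and 4.26 FPKM in Riclin replicates 2, 3 and 4. Riclin replicate 4 was the highest by a wide margin, and Riclin replicate 3 lay within the saline range. The means differed 1.44-fold, and the log2 fold change of 0.34 (SE 0.205, 95% interval -0.13 to 0.82, limma adjusted p = 0.843) was 0.12 without Riclin replicate 4 and 0.53 without Riclin replicate 3. The nearest profiles were those of Igfbp5 (root mean square difference 0.0867), Col6a2 (0.0887), Il6st (0.0987) and Hr (0.117), against a median of 0.338 over the tested genes compared. Igfbp5 and the collagen VI chain Col6a2 are stromal genes, and both were highest in Riclin replicate 4, at 81.4 and 53.3 FPKM.

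Macrophage markers were measured beside Clec7a, Cd14 and Tlr4, since macrophages carry all 3 receptors. Of 13 listed markers 7 had a log2 fold change above 0 and 6 below, with a median of 0.042, and none was at 0 in any library. Their summed level was 305 to 376 FPKM in saline and 254 to 360 in Riclin. In 2 of the 13 (15.4%, beside 11.2% of all tested genes) the groups did not overlap: Adgre1 (F4/80), at 5.54 to 6.44 FPKM in saline and 6.75, 7.80 and 9.53 in Riclin replicates 2, 3 and 4, and the Fc receptor Fcgr1, at 1.49 to 1.91 and 2.01 to 3.29 FPKM. Riclin replicate 4, highest in Clec7a, was the highest in both. Neither gene passed the adjusted threshold (limma adjusted p = 0.791 and 0.765). Markers of endothelium, which also carries Tlr4, summed to 53.2 to 59.6 FPKM in saline and 57.5 to 61.3 in Riclin. Neutrophil markers (11 genes) summed to 9.73 to 18.1 FPKM in saline and 10.6 to 41.7 in Riclin, with the granule and surface genes Ly6g, Elane and Mmp8 at 0 in at least 1 library. Dendritic cell markers summed to 204 to 315 FPKM and 169 to 342 FPKM, and fibroblast markers to 464 to 616 and 608 to 705 FPKM. The highest of each of these 3 sums was in Riclin replicate 4, the library highest in Clec7a. In the neutrophil sum 1 gene, Retnlg, gave 31.9 FPKM of the 41.7, and without it Riclin replicate 2 was highest, at 10.95 FPKM against 9.78 in Riclin replicate 4. All 3 tested neutrophil markers had a log2 fold change above 0, and the other 8 were below the filter. The groups did not overlap in 1 of the 3 (33.3%, beside 11.2% of all tested genes), S100a8. It measured 0.248 to 1.116 FPKM in saline and 1.986 to 2.415 in Riclin (limma adjusted p = 0.682). Of the dendritic cell sum of 342 FPKM, H2-Aa, H2-Ab1 and Cd74 gave 80.1, 67.8 and 190. H2-Aa and H2-Ab1 were highest in Riclin replicate 4, while Cd74 was highest in saline replicate 4, at 209 FPKM. Among the other dendritic cell genes only Itgax was highest in Riclin replicate 4. Of the fibroblast sum of 705 FPKM, Col1a1, Col1a2 and Col3a1 gave 118, 154 and 305. Pdgfra, Dcn and Lum were not highest in that library, and Lum was lowest there, at 21.1 FPKM. The part of macrophage, neutrophil, dendritic cell, fibroblast or endothelial content in the receptor values was not tested.

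Nod1, the epithelial sensor of a peptidoglycan fragment from mainly Gram-negative bacteria, varied least among the 9 genes relative to its mean. It lies on chromosome 6 from 54923949 to 54972612 on the minus strand. Its level was 4.42, 3.97 and 4.29 FPKM in saline replicates 1, 2 and 4, and 4.58, 5.01 and 4.96 FPKM in Riclin replicates 2, 3 and 4. Every Riclin library lay above every saline library, with saline replicate 1 and Riclin replicate 2 close together. The means were 4.23 ± 0.229 and 4.85 ± 0.236 FPKM (SD, n = 3 each), 1.15-fold higher. By limma the log2 fold change was 0.16 (SE 0.0920, 95% interval -0.051 to 0.38, adjusted p = 0.843). With pancreatic genes removed and the libraries rescaled, the groups overlapped (4.60 to 5.04 and 5.02 to 5.52 FPKM) and the value was 0.10.

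Nod2, the sensor of muramyl dipeptide, and Tlr5, the flagellin receptor, rested on few reads. Nod2 (chromosome 8, 88647315 to 88688474, plus strand) had 39 to 61 reads in saline and 30 to 92 in Riclin. It measured 0.334, 0.302 and 0.269 FPKM in saline replicates 1, 2 and 4 and 0.337, 0.489 and 0.168 FPKM in Riclin replicates 2, 3 and 4. The Riclin libraries held both the highest and the lowest value, and the exact two-sided permutation p for the means was 0.7. The ratio of Riclin to saline was 1.10, and without Riclin replicate 3 it turned to 0.838.

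Tlr5 (chromosome 1, 182954788 to 182976044, plus strand) measured 0.215, 0.263 and 0.470 FPKM in saline and 0.123, 0.209 and 0.120 FPKM in Riclin. Every Riclin library was below every saline library, and 7.37% of the untested genes above 0 had groups apart in either direction. The nearest pair, saline replicate 1 and Riclin replicate 3, had 53 reads each, and their 95% Poisson intervals (0.161 to 0.281 and 0.156 to 0.273 FPKM) nearly coincided. The means were 0.316 ± 0.135 and 0.151 ± 0.0503 FPKM (SD, n = 3 each), 2.10-fold higher in saline. The exact two-sided permutation p was 0.1, the smallest this design can give, and in the limma fit without a filter the adjusted p was 0.892. Without saline replicate 4 the ratio of Riclin to saline was 0.630 in place of 0.477.

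**Figure D3:**
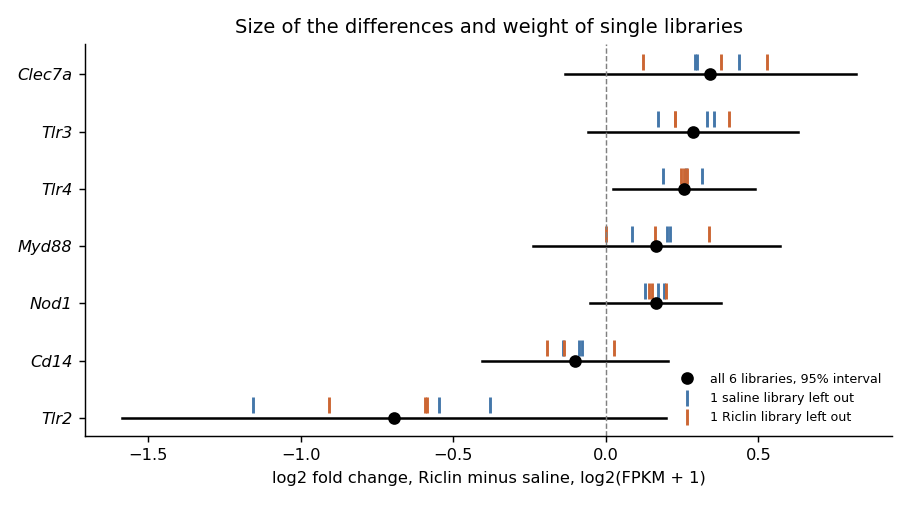
log2 fold change (Riclin minus saline, on log2(FPKM + 1)) of the 7 tested members with 95% intervals from limma, and, as ticks above each, the value with 1 library left out. The interval for Tlr4 lies above 0 and all other intervals span 0. The ticks for Tlr2 run from -1.16 to -0.38, and 1 tick for Cd14 lies above 0.

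The genes around these receptors were examined in 10 lists that hold 140 genes, each counted once and members left out. Of these, 83 were tested, 42 with a log2 fold change above 0 and 41 below, and their median was 0.0034. By limma 0 of 83 had an adjusted p under 0.05, and 5 had an unadjusted p under 0.05, which is 6.02% beside 5.90% of all tested genes. The groups did not overlap in 6 (7.23%, beside 11.2%), 3 in each direction. These shares lie near or below those of the whole table.

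Among the adaptors, all 3 tested genes had log2 fold changes above 0, from 0.14 to 0.20. Ticam1, which encodes TRIF, measured 9.90 ± 1.56 and 11.5 ± 1.19 FPKM (SD, n = 3 each), and Tirap, which brings MYD88 to TLR2 and TLR4, 4.54 ± 0.827 and 5.16 ± 0.152 FPKM. Of the co-receptor and trafficking genes, 5 of 8 were above 0 and 3 below. Ly86, the partner of the receptor-like CD180, measured 3.48 ± 0.671 and 4.50 ± 1.15 FPKM. Of 14 tested kinases and ubiquitin ligases, 9 were above 0 and 5 below. The ligase Traf6 measured 3.99 ± 0.780 and 4.87 ± 0.343 FPKM, and the kinase Ikbke 2.13 ± 0.361 and 1.67 ± 0.314 FPKM. In all 5 genes the groups overlapped.

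Genes that restrain or carry the NF-kappaB signal held the pathway member with the smallest p. Nfkbie, an inhibitor that holds NF-kappaB in the cytosol, measured 3.18, 3.07 and 3.03 FPKM in saline replicates 1, 2 and 4, and 1.79, 1.78 and 2.09 FPKM in Riclin replicates 2, 3 and 4. All Riclin libraries lay below all saline libraries. The log2 fold change of -0.50 (SE 0.0961) had an unadjusted limma p of 0.000897 and an adjusted p of 0.424, so it did not pass either. Of the 12 core genes, 7 were above 0 and 5 below with a median of 0.028, and the kinase Chuk measured 13.1 ± 1.23 and 12.0 ± 0.885 FPKM. Of 10 tested brakes, 6 were above 0 and 4 below. Groups did not overlap in 2 of these 10, beside 11.2% of all tested genes, the cytokine signalling suppressor Socs1 (1.26 ± 0.301 and 1.80 ± 0.0919 FPKM) and the receptor inhibitor Tollip (17.3 ± 0.780 and 20.4 ± 1.20 FPKM).

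Downstream of Clec7a and the NOD proteins the lists were divided as well. In the C-type lectin list 6 of 11 tested genes were above 0 and 5 below, with a median of 0.013. Clec10a, a galactose-type lectin, measured 4.40 ± 1.39 and 5.63 ± 0.660 FPKM, and Cd209a, a lectin of dendritic cells, 1.27 ± 0.558 and 1.55 ± 0.190 FPKM. The signalling genes Syk (2.46 ± 0.787 and 2.36 ± 0.108 FPKM) and Card9, below the filter at 0.156 to 0.442 FPKM, were chosen after their values were seen. In the NOD and NLR list 3 of 11 were above 0 and 8 below, with a median of -0.063. Slc46a2, a carrier for peptidoglycan fragments, measured 0.400, 1.63 and 0.660 FPKM in saline and 2.45, 1.78 and 1.49 FPKM in Riclin replicates 2, 3 and 4, with an adjusted p of 0.791. Birc3, a ubiquitin ligase of the RIPK2 complex, measured 3.05 ± 0.227 and 2.41 ± 0.365 FPKM with no overlap.

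No gene of soluble or bacterial-wall recognition and no inflammatory target of these receptors passed the threshold. The 4 tested of 14 genes of soluble and bacterial-wall recognition were all below 0 with a median of -0.21. With no filter the median over all 14 was -0.073. Pglyrp1, which binds peptidoglycan, measured 81.0, 108 and 56.3 FPKM in saline and 26.5, 101 and 27.5 FPKM in Riclin replicates 2, 3 and 4, and the ficolin Fcna 5.37 ± 1.11 and 4.51 ± 0.603 FPKM. Of 24 inflammatory targets 16 were below the filter, and 11 were at 0 in at least 1 library, among them Il6, Il12b and Il10. Of the 8 tested, 3 were above 0 and 5 below, with a median of -0.12, and with no filter the median over all 24 was -0.023. The chemokine Ccl5 measured 7.88, 2.97 and 14.9 FPKM in saline replicates 1, 2 and 4 and 1.58 to 2.62 in Riclin, and the acute-phase gene Saa3 0.920, 2.67 and 2.44 FPKM in saline and 0.594 to 1.11 in Riclin (limma adjusted p = 0.765 and 0.791). Ccl5 was high in saline replicates 1 and 4, as were Tlr2, Cd79a and Cd79b.

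**Figure D4:**
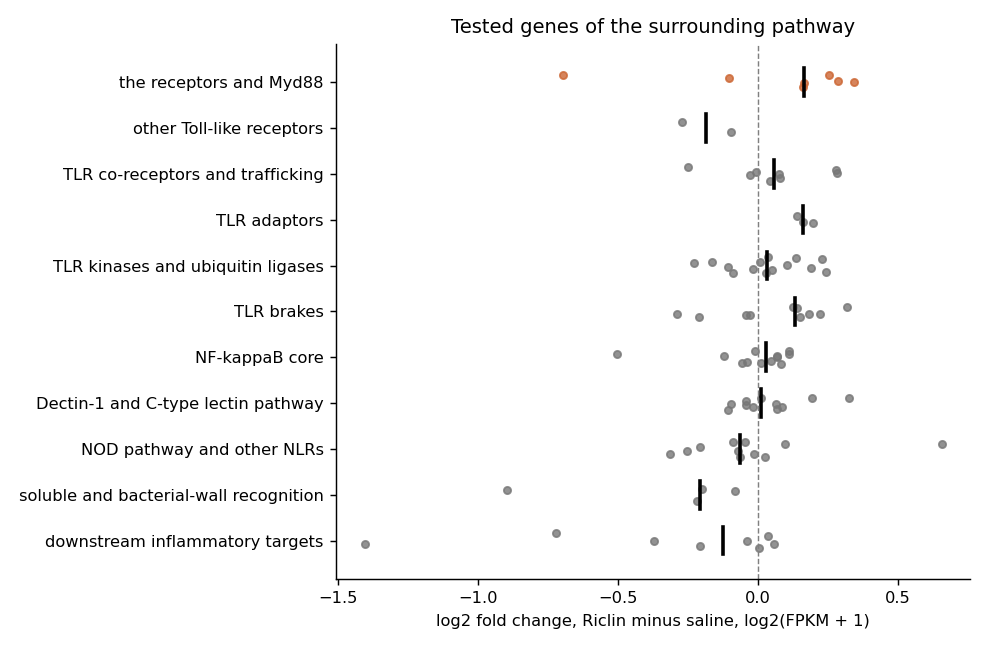
log2 fold change (Riclin minus saline, on log2(FPKM + 1)) of each tested gene, by list, with a black bar at the list's median. The row of the 7 tested members spans -0.69 to 0.34, the lowest point of all is Ccl5 at -1.40 and the highest is Slc46a2 at 0.66.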

How the data were processed

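Stomach RNA of 3 saline and 3 Riclin libraries was compared. Total RNA was extracted with TRIzol and libraries were made with a VAHTS kit, per the labels' protocols. The authors deposited 1 table of FPKM values. Bowtie2 and the build mm10 are named in the submitters' processing notes without roles, and the sources used here do not give the counting tool, annotation or strand. FPKM values carry whole read numbers, which were recovered for 99.94% of 23550 symbols (relative tolerance 1e-10) and gave read counts and exact 95% Poisson intervals, which cover counting error only. Libraries of a group all differed beyond counting noise.

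Genes that reached 1 FPKM in 3 or more libraries were put on log2(FPKM + 1), which understates changes of low genes, and compared with limma 3.58.1 (R 4.3.3, intensity trend, two-sided, no covariate, Benjamini-Hochberg over 11738 genes). Members below the filter had an exact permutation test. Code was tested on simulated data. Positions are from GENCODE M21 on GRCm38 (9 of 9 members matched), the assembly that mm10 names, and promoters from RefSeq.

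Members and gene lists were chosen with earlier results of these data known. Named beside the members are the 2 genes of each pathway list with the smallest p and the 4 nearest profiles of the 3 most variable tested members. The profile search left out predicted and unnamed symbols and single immunoglobulin and T cell receptor segments. Alternatives were another pseudocount, filter, scaling, variance prior or library set, a replicate block, removal of pancreatic genes, and voom on recovered reads. Figures were drawn with matplotlib 3.10.9.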

Additional observations from a re-analysis of the deposited data

How the results depend on the processing

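Of 108 log2 fold changes of the 7 tested members under 16 alternatives, 107 kept their direction, 0 passed the adjusted threshold, and the smallest limma adjusted p was 0.349, for Tlr2 without saline replicate 2. The exception was Cd14, at 0.0275 without Riclin replicate 2, with a range of -0.19 to 0.0275 over single libraries left out. Over all genes, limma called 2 with a robust variance prior and 0 to 1 with 1 library left out, none of them a member, namely 1 without saline replicate 2, and 0 under every other alternative, voom on recovered reads included. The median of the members ran from 0.10 (pancreatic genes removed) to 0.23 (without Riclin replicate 2), where that over all tested genes was -0.022 and 0.064. At an FPKM of at least 5 only Myd88, Cd14 and Tlr4 could be tested. Genes with an unadjusted p under 0.05 numbered 693, 1224 with no filter, 376 at an FPKM of at least 5 and 741 with voom. The members with one changed with the setting. Tlr4 had one in 8 of 16 alternatives but in 1 of 6 that left out 1 library, Clec7a in 3 of 15 (with the replicate block, without Riclin replicate 3, and without that library and saline replicate 1 together), Tlr2 in 1 (without saline replicate 2), Tlr3 in 1 (without Riclin replicate 4), and Myd88, Cd14 and Nod1 in 0.

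Only the numbers 2 and 4 occur in both groups, and same-numbered libraries deviated together with correlations of 0.22 and 0.01, so the numbers were not taken as pairs. With the replicate block limma called 0 genes and 0 members, the members' median was 0.17, and Tlr2, Clec7a and Tlr4 were at -0.76, 0.62 and 0.32. That fit takes saline replicate 1 and Riclin replicate 3 out of the comparison. Depth limits Tlr5 and Nod2 most, with 29 to 92 and 30 to 92 reads.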
